A study of Mus musculus with 4 samples.

Results

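A small set of lymph node T cells with transcripts of the γδ T cell receptor constant gene Trdc, the IL-23 receptor gene Il23r or the scavenger receptor gene Cd163l1 was examined by single-cell RNA sequencing in draining lymph nodes of mice given extracellular vesicles (EVs) from induced pluripotent stem cells (iPSCs) and of control mice. A cell was a member if it had at least 1 UMI (unique molecular identifier, the count of 1 captured transcript) of Cd3d, Cd3e and Cd3g together, 0 UMIs of Cd4, Cd8b1, Cd79a and Ncr1, and at least 2 UMIs of Il23r, Cd163l1 and Trdc together. Members were thus chosen by UMI counts of these genes alone. The rule found 211 members among 32725 cells that passed the cell filter, and among 15024 T cells, which were all cells with a Cd3 UMI and 0 UMIs of Cd79a and Ncr1. The remaining 14813 T cells are called other T cells.

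γδ T cells carry a receptor built from the Tcrg and Trd gene loci in place of the αβ receptor of most T cells. Some of them are innate-like: they acquire their program in the thymus under factors such as Maf and Sox13, carry receptors for IL-23 and IL-1, and respond soon after those cytokines appear. These cells are known as a small, mobile population of skin, mucosa and the lymph nodes that drain them, while another branch expresses Cd27 and NK-type receptors and produces interferon-γ.

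All samples were lymph node cells of wildtype C57BL/6 mice on which no other allele was named. The EV group received 100 µg of iPSC EVs, and the control group was labelled as untreated. The study's methods state that the EVs were given under the skin. The labels give 24 h as the time, whereas the study's methods give day 5 and a saline control, and this difference could not be settled from the sources used here. The age and sex of the mice and the number of animals in a library were not given in the sources used here. Each group held 2 libraries, which the study's methods call biological replicates, and no library was left out of the main comparisons. Values for single libraries are listed throughout in the order control 1, control 2, EV 1, EV 2. Summed over all deposited barcodes, before the cell filter, the libraries held 50749656, 58100433, 68116085 and 70418672 UMIs. The libraries differed in their make-up before any member was counted: T cells were 55.0% and 58.7% of control cells but 30.7% and 39.9% of EV cells. Pairs of libraries shared between 11 and 24 cell barcodes, and 0 barcodes belonged to members in both libraries of a pair.

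The gate genes are described here without a test, because they chose the members. Summed over members, the 4 libraries held 261, 276, 174 and 307 UMIs of Il23r, 271, 235, 97 and 266 UMIs of Cd163l1, and 387, 351, 226 and 350 UMIs of Trdc. All 3 genes were thus seen in every library, EV library 1 holding the fewest UMIs of each. In GRCm38, Il23r lies at chr6:67422932-67491855 on the minus strand, Cd163l1 at chr7:140218267-140231145 on the plus strand, and Trdc at chr14:54142851-54148868 on the plus strand, upstream of Trac at chr14:54220521-54224206. The sum of the 3 genes in a member ranged from the required 2 UMIs to 86, and 22 members sat at exactly 2, while 64 cells just outside the gate had exactly 1. A UMI of Ccr6, a chemokine receptor gene that the rule did not use, was found in 49.2% of members with 3 or more gate UMIs, 18.2% of those with 2, and 4.69% of the cells with 1. The step at the gate was not seen for every gene, since Tcrg-C1 had a UMI in 64.6%, 4.55% and 7.81% of the same cells and Nkg7 in 34.4%, 9.09% and 12.5%. A further 4 barcodes met the gate but not the cell filter, all of them in control library 2.

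The members were not 1 kind of cell. By their gate genes, 126 members had a UMI of Il23r or Cd163l1, of which 58 also had Trdc and 68 did not, and the other 85 entered the gate with Trdc alone. The Il23r/Cd163l1 members were 42 of 70, 34 of 58, 23 of 38 and 27 of 45 members. Their share was lowest in control library 2, at 58.6%, and highest in EV library 1, at 60.5%, so it hardly varied. The median member had 7362.5 UMIs among those with both, 9656 among those without Trdc, and 6302 among the Trdc-only members.

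**Figure D1:**
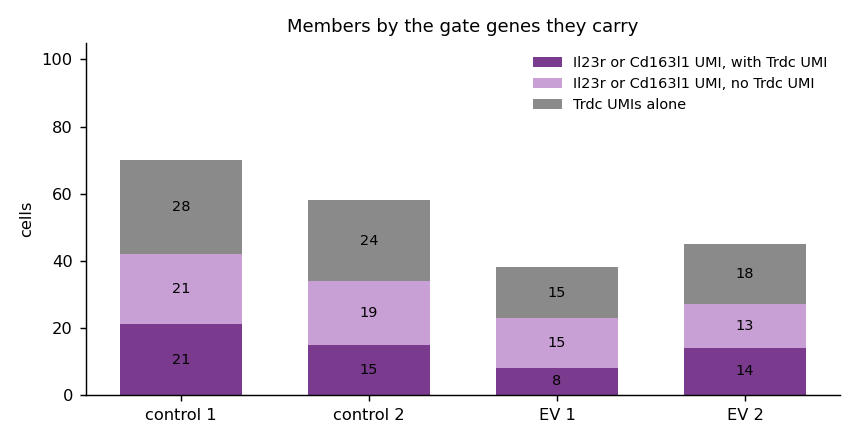
Number of member cells of each kind (vertical axis, cells) in the 4 libraries (horizontal axis), split by gate genes into Il23r/Cd163l1 members with Trdc, Il23r/Cd163l1 members without Trdc, and Trdc-only members. All 3 kinds were present in every library, and Trdc-only members numbered 28, 24, 15 and 18.

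Receptor genes separated the 3 kinds further, given here as a description because the split rests on Trdc. Trac, the constant gene of the αβ receptor α chain, had a UMI in 27.6% of the Il23r/Cd163l1 members with Trdc (95% exact binomial interval 16.7 to 40.9), in 75.0% of those without Trdc (63.0 to 84.7), and in 41.2% of the Trdc-only members (30.6 to 52.4). The γ-chain constant genes Tcrg-C1, Tcrg-C2 and Tcrg-C4 together had a UMI in 96.6%, 75.0% and 64.7% of the same kinds. Among all members, 33 of 211 had a Trac UMI and none of the 3 γ constant genes. As a background, a Tcrg-C1 UMI was found in 0.0142% of 14119 B cells and 0.560% of other T cells, at median depths of 4123 to 5795 and 6432 to 8731 UMIs a cell by library. Reads of the 3 Tcrg-C genes may not be fully separable, so that their division among these genes is uncertain. The receptor transcripts therefore gave no single γδ label for the members as a whole, and they are called by their gate genes below.

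**Figure D2:**
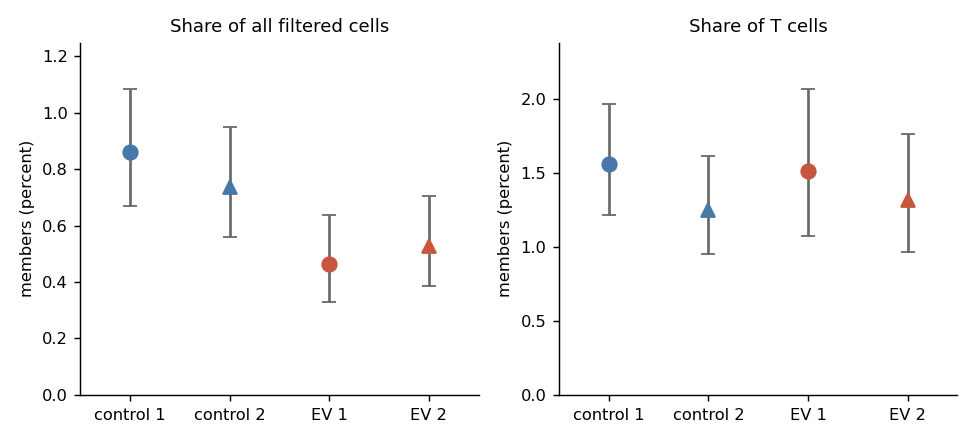
Share of member cells (vertical axes, percent) in each library, of all cells that passed the filter in one panel and of T cells in the other. Points are libraries with exact 95% binomial intervals: of all cells each EV point sits under each control point, and of T cells the groups overlapped.

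Members were 0.860% (0.671 to 1.09) and 0.735% (0.559 to 0.949) of all cells in the control group, and 0.465% (0.3296 to 0.638) and 0.528% (0.385 to 0.705) in the EV group. The groups did not overlap, the EV group being lower, with means of 0.797% ± 0.0883 (SD, n = 2) and 0.497% ± 0.0439 (SD, n = 2). The exact two-sided permutation test over libraries gave p = 0.33, which is the smallest p that 2 against 2 libraries allow. Counted among T cells, members were 1.56% (1.22 to 1.97) and 1.25% (0.952 to 1.62) in the control group and 1.51% (1.07 to 2.07) and 1.32% (0.966 to 1.76) in the EV group. These groups overlapped, and their means of 1.41% ± 0.220 and 1.42% ± 0.136 (SD, n = 2) did not differ beyond the spread between libraries (exact two-sided permutation test, p = 1). The lower share of all cells thus went with the lower share of T cells in the EV libraries, in which B cells were 57.2% and 48.8% of cells against 35.4% and 30.5% in the control libraries. The intervals, exact Clopper-Pearson at 95%, cover counting error only.

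To find which genes outside the gate set the members apart, UMIs were summed over members and over other T cells of each library and compared with library as a block (edgeR quasi-likelihood test, adjusted p under 0.05). Levels are given as counts per 1000000 UMIs (CPM). Members had higher levels of most tested genes of a regulator list, Maf, Rora and Blk among them. Most tested genes of a surface and effector list were higher too, as were most of the γ- and δ-chain list, which is tied to the gate gene Trdc. Every listed gene of naive T cell homing was lower. Of 12230 genes tested, 1147 were higher (9.38%) and 1076 lower (8.8%) in members, and the median log2 fold change of all tested genes was -0.05. With total UMIs as library sizes, without edgeR's TMM scaling, the median of all genes was 0.18 and the calls were 1890 higher and 527 lower, so the balance of directions depends on the scaling. DESeq2 called 1050 higher and 658 lower, and edgeR 703 higher and 887 lower when members needed Trdc with Il23r or Cd163l1, of which 1298 were shared with the main gate.

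In a list of regulator genes that holds Maf, Sox13, Rora, Blk and Zbtb16, 11 of 16 tested genes were higher and 2 lower, with a median log2 fold change of 1.62. Blk (chr14:63372836-63417037, minus strand), a Src-family kinase gene best known from B cells, was at 329, 465, 237 and 374 CPM in members against a mean of 1.13 CPM in other T cells (log2 fold change 8.04 ± 0.17 SE, edgeR adjusted p = 9.18e-27). A Blk UMI was found in 73.0% of B cells. Ms4a1, a B cell surface gene, had 1 UMI over all members, whereas Cd79b, another B cell gene, had a UMI in 46 of 211. Cd79b was called higher than in other T cells, and the B cell genes Bank1 and Ighm lower. Maf, a basic leucine zipper transcription factor gene, was at 471, 378, 369 and 443 CPM in members against a mean of 27.7 CPM, a log2 fold change of 3.72 ± 0.14. Rora, Zbtb16 and Id2 also rose, by log2 fold changes of 3.73, 6.78 and 2.63. Tox and Nfkbiz were called lower, but without TMM scaling neither was: Tox differed by -0.20 with it and by 0.03 without, at means of 672 CPM in members and 657 CPM in other T cells.

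In a second list of surface and effector genes, which holds Ccr6, Il1r1, Il7r and S100a4, 27 of 30 tested genes were higher and 0 lower, with a median log2 fold change of 2.95. Il1r1 (chr1:40225080-40317257, plus strand), the receptor that carries the IL-1 signal, was at 154, 174, 135 and 268 CPM in members. Other T cells averaged 0.614 CPM of Il1r1, and the change of 7.93 ± 0.27 on the log2 scale was called (edgeR adjusted p = 2.01e-21). Ccr6, the chemokine receptor for Ccl20, was at 295, 151, 143 and 292 CPM against a mean of 3.72 CPM. Its level varied among libraries of both groups, and all were far above other T cells (log2 fold change 5.67 ± 0.24, edgeR adjusted p = 5.18e-19). S100a4, a calcium-binding protein gene of migrating effector cells, was at 1562, 1735, 1613 and 1283 CPM in members and at 47.9, 62.7, 57.8 and 28.5 CPM in other T cells. Among the 27 genes were also Ccr2, Cxcr6, Il18r1, Il7r, Il17re and Cd44, receptors for chemokines, cytokines and matrix, with log2 fold changes of 4.68, 3.15, 2.73, 1.41, 7.46 and 2.12. The gene 5830411N06Rik, the neighbour and near copy of Cd163l1 on chromosome 7, rose by 6.03, and reads of the pair may not be fully separable.

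Of 12 listed cytokine genes 5 passed the filter on low counts, and Csf2, Tnf, Lta and Ltb were higher. Ltb, the lymphotoxin β gene, was the most abundant, at a mean of 964 CPM in members and 640 CPM in other T cells (log2 fold change 0.34 ± 0.08, edgeR adjusted p = 0.00155). Tnf averaged 44.9 CPM in members and 12.7 CPM in other T cells (log2 fold change 1.56 ± 0.26, edgeR adjusted p = 2.1e-05). Il17a was found at 6 UMIs in 2 cells and Il17f at 17 UMIs in 5 cells, too few to be tested. All 17 UMIs of Il17f were in Il23r/Cd163l1 members with Trdc.

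Receptor genes moved in opposite directions. Of 17 listed γ- and δ-chain genes 10 were tested and 9 rose, with a median log2 fold change of 6.38. The gate gene Trdc belongs to the same receptor and had a UMI in 143 of 211 members, so this rise is tied to the gate. Tcrg-C1 was at 229, 222, 154 and 215 CPM in members against a mean of 1.11 CPM in other T cells. All 3 αβ constant genes fell, Trac from a mean of 507 CPM in other T cells to 204 CPM in members (log2 fold change -1.58 ± 0.11) and Trbc1 and Trbc2 by -0.57 and -0.60.

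All 10 genes of the naive homing list fell, with a median log2 fold change of -1.61. Lef1, a transcription factor of naive T cells, was at 303, 262, 297 and 326 CPM in members and averaged 1100 CPM in other T cells, with no overlap (log2 fold change -2.12 ± 0.07, edgeR adjusted p = 5.92e-22). S1pr1, the receptor that guides exit from lymph nodes, differed by -0.96 and Ccr7, the chemokine receptor for entry, by -1.69. Cd8a belongs to this list as well, but it lies beside Cd8b1 and is co-expressed with that gate gene, so its fall is tied to the gate. The interferon-γ-type list had no single direction: Klrk1, Klrc1 and Ccl5 rose, 7 of 16 tested genes fell, and the median was -0.14, or 0.09 without TMM scaling. Klrc1 UMIs were all in Trdc-only members, 35 in number, and Ccl5 was lower than in other T cells (-1.43) when members needed Trdc with Il23r or Cd163l1. Set against T cells without Cd4 and Cd8b1 UMIs, Nkg7 was higher in members (1.10) rather than lower, and Klrd1 and Ly6c2 were no longer called. The Mediator kinase genes, Cdk8 among them, had 0 of 7 tested genes called.

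The 10 largest rises included Zfp462, Kcnk1, Sdc1, Abi3bp, Cdh10 and Mmp25. Abi3bp, an extracellular matrix protein gene, averaged 213 CPM in members and 0.642 CPM in other T cells (log2 fold change 8.21 ± 0.26). Among the 10 largest falls were Il6ra and Ubash3a, besides Dapl1 and Igfbp4 of the naive homing list. Il6ra, the IL-6 receptor α chain, was at 30.1, 27.0, 30.3 and 50.4 CPM in members against a mean of 158 CPM in other T cells (log2 fold change -2.46 ± 0.16).

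The Il23r/Cd163l1 members and the Trdc-only members were next compared in the same way, leaving the gate genes untested. Blk, Il1r1 and Ccr6 were high in the former and at or near 0 in the latter, while naive homing and interferon-γ-type transcripts were at higher levels in the Trdc-only members. The regulator list summed to means of 4659 and 1781 CPM in the Il23r/Cd163l1 and Trdc-only members, next to 1436 CPM in other T cells, and the surface and effector list to 14722, 2186 and 1555 CPM. Of 3862 genes tested, edgeR called 368 higher (9.53%) and 386 lower (9.99%) in the Il23r/Cd163l1 members, and DESeq2 called 224 higher and 216 lower. By edgeR the median log2 fold change over all tested genes was -0.01. Of the regulator list, 8 of 12 tested genes were higher and Id3 and Tox lower (median 2.19). Of the surface and effector list, 24 of 28 were higher and Il2rb alone was lower (median 3.34), the 24 including 5830411N06Rik, whose reads may not be separable from those of the gate gene Cd163l1. All 7 tested naive homing genes were lower (median -1.41), as were 5 of 6 interferon-γ-type genes (median -3.26).

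**Figure D3:**
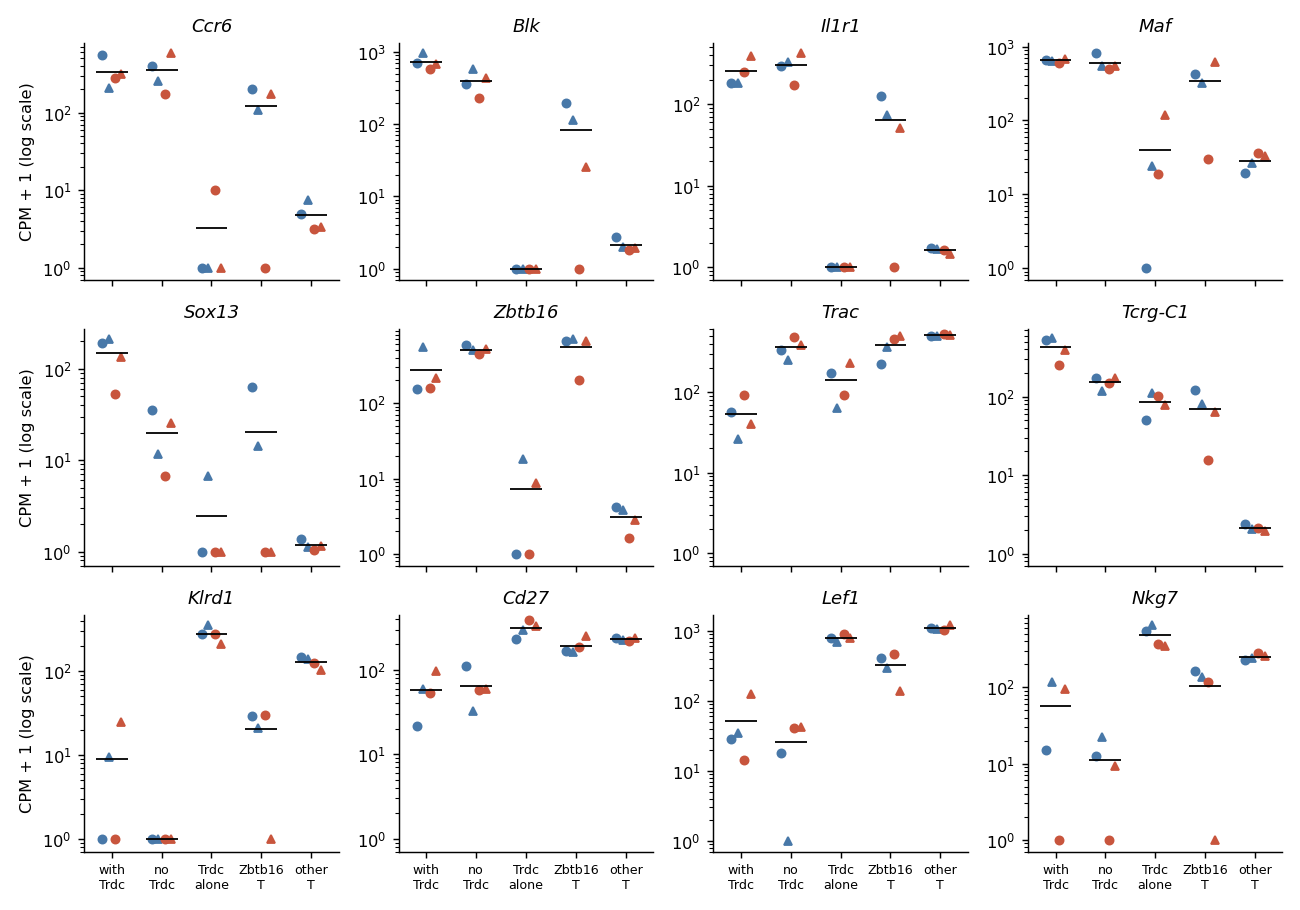
Level of 12 genes (vertical axes, CPM + 1, log scale) in each kind of member, in Zbtb16 T cells and in other T cells (horizontal axes), 1 point a library (blue control, red EV, circle replicate 1, triangle replicate 2) with a black bar at the mean. Blk and Il1r1 were at 0 CPM in the Trdc-only members of all 4 libraries, whereas Klrd1, Cd27, Lef1 and Nkg7 were highest there among members.

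Il1r1 was at 243, 273, 194 and 408 CPM in the Il23r/Cd163l1 members and had 0 UMIs in the 85 Trdc-only members, which allows a share of cells with a UMI of up to 3.53%. Its level was thus at least 54.9-fold higher, with the absent side set at 3 UMIs over the group. By the same bound Blk was at least 109-fold, Adam12 at least 55.8-fold and Il17re at least 18.7-fold higher. Il1r1 was seen in 65.9% of Il23r/Cd163l1 members, in 38.9% after each cell was thinned to 2000 UMIs, and in 0.602% of B cells, taken as background. Ccr6 had 381 UMIs in the Il23r/Cd163l1 members and 1 in the Trdc-only members, a ratio of levels of 202 (exact counting interval 36.0 to 7989). A Ccr6 UMI was also found in 38.9% of B cells. Ccr2, with 405 and 2 UMIs, had a ratio of 107 (29.5 to 888). Maf, at 740, 579, 523 and 614 CPM, exceeded its 0, 23.0, 18.1 and 116 CPM in the Trdc-only members by a log2 fold change of 4.02 ± 0.39. Zbtb16, the gene of the innate-like T cell factor PLZF, differed by 5.75 ± 0.39 (edgeR adjusted p = 1.21e-09).

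In the other direction, Klrd1, the CD94 receptor gene, was at 276, 350, 280 and 209 CPM in Trdc-only members and at 0, 3.25, 0 and 12.1 CPM in Il23r/Cd163l1 members (log2 fold change -6.18 ± 0.44, edgeR adjusted p = 1.81e-09). Nkg7, a cytotoxic granule gene, was at 541, 643, 370 and 347 CPM against 12.6, 58.5, 0 and 52.5 CPM (-4.09 ± 0.34). Neither gene overlapped between the kinds in any library. Lef1 differed by -4.57 ± 0.28 and Cd27, the costimulatory receptor that marks the other γδ branch, by -2.43 ± 0.23. Samd3, with 56 UMIs in Trdc-only members and 0 in the others, was at least 35.3-fold higher there. Among γ-chain genes the direction was divided, with Tcrg-C1 higher in the Il23r/Cd163l1 members (1.62 ± 0.26) and Tcrg-C4 lower (-1.21 ± 0.22), and neither sign changed under another scaling. Both values are tied to the gate, since every Trdc-only member carried Trdc while 68 of the 126 others did not. A Tcrg-C4 UMI was found in 63.8% of members with both, 20.6% of those without Trdc and 49.4% of Trdc-only members. For Tcrg-C1 these shares were 89.7%, 60.3% and 35.3%.

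Within the Il23r/Cd163l1 members, the cells with and without Trdc differed in level in ways that were not tested, since the cells were few and the split rests on Trdc. Sox13, a γδ lineage factor, averaged 146 CPM in those with Trdc, 18.9 CPM in those without, and 1.43 CPM in Trdc-only members. Trdv4 averaged 94.8, 2.06 and 0 CPM in that order, and Tcrg-V6, whose product pairs with the Trdv4 chain, 36.7, 2.06 and 2.81 CPM. Trac ran the other way, with means of 53.0 CPM with Trdc and 362 CPM without, next to 507 CPM in other T cells. Icos, a costimulatory receptor gene, averaged 162 CPM with Trdc and 797 CPM without, and Zbtb16 271 and 512 CPM. Maf was closer between both, at 647 and 593 CPM. Ccl5, a chemokine gene, was at 5.76, 2232, 1260 and 33.0 CPM in the members without Trdc, so that 1 library of each group was high and 1 was low.

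Markers of other cell types were counted in the members because the gate removed only cells with Cd4, Cd8b1, Cd79a or Ncr1. Of 10 myeloid genes, Lyz2, C1qa and Fcer1g were called higher than in other T cells, and Cd14 and Itgam were at 0. The summed myeloid level was 211, 426, 285 and 137 CPM in Il23r/Cd163l1 members and 38.6, 45.9, 36.1 and 69.5 CPM in Trdc-only members. Lyz2, the lysozyme gene and the most abundant of the list, was found in 27 of 211 members, 17 of them without Trdc, and 7 cells had 10 or more UMIs. The part of these transcripts in the results was not tested. Of the B cell genes Cd79b was higher in members (log2 fold change 1.44 ± 0.26, edgeR adjusted p = 7.1e-05), with a UMI in 26 of the 58 members with both, while Bank1 and Ighm were lower. The summed B cell level was 263, 405, 262 and 355 CPM in members against 326, 286, 358 and 335 CPM in other T cells, so the classes overlapped. Of 12 NK genes 9 had a UMI in members and Klra4, Klra8 and Klra9 were at 0. Klrb1c, Fcer1g and Tyrobp, the last the most abundant, were called higher than in other T cells, and Prf1 and Eomes lower. The summed NK level was 76.2, 264, 63.3 and 119 CPM in members against 82.2, 72.3, 134 and 105 CPM in other T cells, so that it was higher in members of control 2 and EV 2 only. Of the nuclear and rRNA-like transcripts, a sign of RNA quality, Gm42418, AY036118 and Camk1d were called higher in members, 3 of 6 with 0 lower, and the list summed to means of 29362 CPM in members and 25069 CPM in other T cells. Of 12 immediate-early genes Fos, Fosb and Dusp1 were higher and Egr1 and Cd69 lower. The part of both lists in the results was not tested. Of 4 regulatory T cell genes, Ikzf2 was higher, Ctla4 lower, and Foxp3 had 28 UMIs. Of 5 tested genes of natural killer T and mucosal-associated invariant T cells, Zbtb16 and Klrb1c were higher and Traj18 lower. Without TMM scaling 3 were higher and 0 lower. In members without Trdc, 88.2% had a Zbtb16 UMI and 19.1% a Traj18 UMI, against 0.304% and 16.0% of other T cells. Of 3 tested genes of group 2 innate lymphoid cells, Klrg1 was higher.

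Other T cells with a Zbtb16 UMI, 15, 16, 6 and 8 cells by library, were compared as another innate-like class. Between members and these cells 9 of 4525 genes (0.199%) differed, and 307 had an unadjusted p under 0.05. When members needed Trdc with Il23r or Cd163l1, 115 genes were called. Hdac9 and Smc4 were among the 3 genes higher in members, and Ntrk3, Izumo1r, Chn2, Kcnq5, Rgs2 and Ifi27l2a were lower. Hdac9, a histone deacetylase gene, was at 413, 125, 105 and 98.1 CPM in members and at 0, 26.8, 0 and 0 CPM in Zbtb16 T cells (log2 fold change 4.37 ± 0.64). That rise lay with the Trdc-only members, whose mean was 475 CPM, against 29.9 and 27.7 CPM in the other kinds. Kcnq5, a potassium channel gene, was at 259, 201, 129 and 260 CPM in members and at 768, 1275, 635 and 1046 CPM in Zbtb16 T cells. No tested gene of the regulator list (12) or of the surface and effector list (29) was called, with medians of 0.28 and 0.54 against 0.01 over all genes. The Zbtb16 T cells of EV library 1 also held 5727 CPM of myeloid transcripts against 209 CPM in its members. The count of calls depended on single libraries, being 0 without control library 1 or EV library 2 and 14 without control library 2.

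EV and control members were compared to ask whether gene levels in these cells differed with treatment. At 38 to 70 members a library no gene passed the threshold, but heat shock and interferon-response transcripts stood higher in both EV libraries and nuclear and rRNA-like transcripts lower. Of 6412 genes tested, 0 (0.0%) were called by edgeR and 0 by DESeq2, while 308 had an unadjusted p under 0.05 and the smallest adjusted p was 0.754. With 1 library left out, so that 1 group was a single library assumed to vary like the other, edgeR called 12 (without control 1), 19 (control 2), 6 (EV 1) and 3 genes (EV 2). The libraries of the groups did not overlap for 2154 genes (33.6%).

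For all 13 tested heat shock genes, which encode protein-folding chaperones, the EV group lay wholly above the control group, with a median log2 fold change of 0.77 against 0.00 over all genes. Hsp90aa1 was at 146, 178, 410 and 313 CPM, with no overlap (log2 fold change 1.14, unadjusted p among the 10 smallest). For the list as a whole the summed level was 2607, 3042, 5518 and 4504 CPM in members and 2781, 2906, 4364 and 4990 CPM in other T cells. Of 11 interferon-response genes 8 lay above in both EV libraries, with a median of 1.16. Isg15, an interferon-induced ubiquitin-like protein gene, was at 6.02, 14.5, 35.8 and 106 CPM, and Ly6a, another interferon-responsive gene, at 174, 162, 383 and 392 CPM. Both were without overlap, and the Ly6a difference of 1.19 on the log2 scale had the smallest p of the comparison (edgeR, unadjusted p = 0.000193). The edgeR interaction test against other T cells called 0 of 14 genes in each of these lists. At an unadjusted p under 0.05 it had 6 interferon genes and 1 heat shock gene, and the median difference of log2 EV effects was 0.65 and 0.10, against -0.01 over all genes. The mean level of Isg15 was 6.90-fold higher in EV members and 2.33-fold higher in EV other T cells, a difference that was not called (edgeR adjusted p = 0.695).

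**Figure D4:**
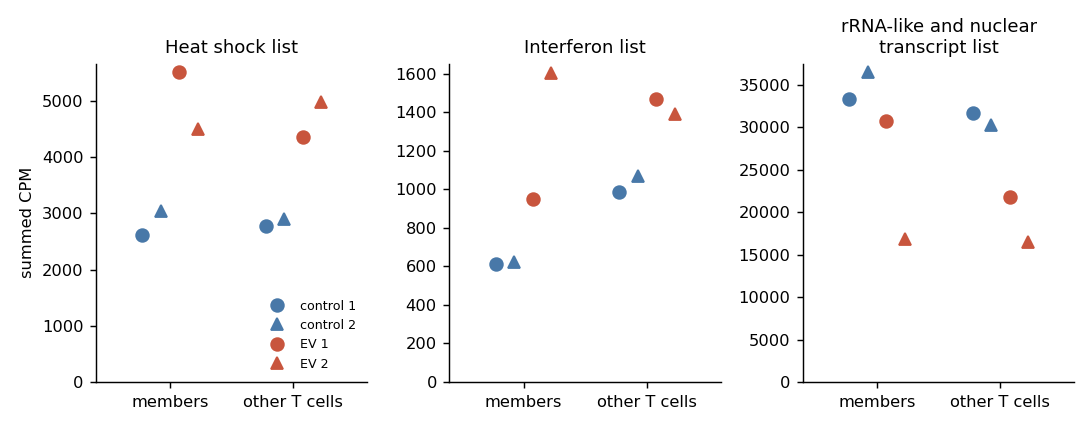
Summed level (vertical axes, CPM) of the heat shock, interferon-response and nuclear or rRNA-like transcript lists in members and other T cells, 1 point a library (blue control, red EV, circle replicate 1, triangle replicate 2). Heat shock and interferon sums were higher in both EV libraries in members and in other T cells.

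The nuclear and rRNA-like list (Malat1, Gm42418, AY036118, Lars2, Cmss1 and Camk1d), taken as a sign of RNA quality, moved with the groups too. Its sum was 33321, 36516, 30765 and 16846 CPM in members and 31725, 30242, 21779 and 16529 CPM in other T cells. For 5 of its 6 genes the EV group lay wholly below the control group, and the median was -1.55. The part of RNA quality in the EV values was not tested, and library and treatment cannot be told apart beyond the 2 libraries a group.

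The regulator and surface lists showed no such common shift. Of the regulators, 5 of 15 did not overlap between groups, and of the surface genes 11 of 29, shares close to that of all genes, with medians of 0.14 and -0.06. On the log2 scale Blk differed by -0.40, Il1r1 by 0.27 and Maf by -0.08, and none of them was called. Trdv4, the variable gene found with Tcrg-V6, was at 38.1, 47.7, 8.26 and 7.95 CPM (log2 fold change -2.38, edgeR adjusted p = 0.972), values that rest on 42 control and 6 EV UMIs in 10 of 211 members. None of the 9 tested naive homing genes was without overlap. Of 7 interferon-γ-type genes 4 lay below in both EV libraries and 2 above. Cdk8, a Mediator kinase gene, was at 866, 421, 286 and 133 CPM in members and at 786, 457, 261 and 89.5 CPM in other T cells. The EV libraries were lower in both classes, and the difference in members was not called (log2 fold change -1.62 ± 0.41, edgeR adjusted p = 0.972).

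The EV effect itself differed between members and other T cells for 4 of 13285 genes (0.0301%) by the edgeR interaction test, and 554 had an unadjusted p under 0.05. Ly6c2, Chst11, Itgb1 and Nkg7 each had a lower EV effect in members, a direction that reversed for Ly6c2 (4.30) when members needed Trdc with Il23r or Cd163l1. DESeq2 called 0 genes, as did edgeR without control library 2, whereas 18, 26 and 50 genes were called without control library 1, EV library 1 and EV library 2.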

How the data were processed

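Lymph node cells were profiled on the 10x platform, 1 matrix a library. The deposited values are raw UMI counts per gene and cell that the authors made with Cell Ranger 7.1.0 on mm10, according to the submitters' processing notes; the annotation release was not given in the sources used here. Cells with 200 to 5000 genes, at most 20000 UMIs and under 10% mitochondrially encoded UMIs were kept, which left 32725 of 34323 barcodes. No doublets were removed; Scrublet (expected 6%) marked 1.58 to 3.76% of cells by library and 0 members. Members and gene lists were chosen with earlier results of these data known. Counts were summed by library and class and tested with edgeR 4.0.16 (quasi-likelihood, TMM, filterByExpr, Benjamini-Hochberg at 0.05) in R 4.3.3 with limma 3.58.1, and with DESeq2 1.42.0 as an alternative. These steps were tested on simulated data. Gate genes stayed in library sizes. They were not tested between classes or in the interaction test, but those that passed the filter were among the genes tested for EV against control. Summed members held 363204 to 498752 UMIs a library. Genes named outside the lists were the 10 largest rises and falls among calls of at least 50 CPM that went 1 way in all libraries, leaving out ribosomal protein, mitochondrial and unnamed gene models, or, for EV against control, those of smallest p. Marker genes of other cell types, and Hdac9 and Trdv4 by kind, were picked for the text after their values were seen. Python 3.11.15, numpy 2.4.6, scipy 1.17.1, pandas 2.3.3, scanpy 1.11.5 and matplotlib 3.10.9 were used. Some genes of the lists are counted but not reported here. The study's other experiments were not analysed here.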

Additional observations from a re-analysis of the deposited data

Results flagged for a closer look

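For 4 genes the EV effect in members differed from that in other T cells by the edgeR interaction test, each more negative in members as gated. Ly6c2, a surface antigen gene of the interferon-γ-type list, was at 150, 230, 90.9 and 95.4 CPM in members of control 1, control 2, EV 1 and EV 2, and at 189, 173, 242 and 198 CPM in other T cells (difference of log2 EV effects -1.30 ± 0.24, edgeR adjusted p = 0.0121). Its UMIs in members lay mostly with the Trdc-only kind, 185 in the control and 49 in the EV libraries, whereas the Il23r/Cd163l1 members held 1 and 20 UMIs. With members limited to those with Trdc and Il23r or Cd163l1, the Ly6c2 difference turned to 4.30 and was called (edgeR adjusted p = 0.021). Chst11, a chondroitin sulfotransferase gene, was at 124, 116, 71.6 and 98.1 CPM in members and 12.5, 11.9, 35.1 and 23.0 CPM in other T cells (-1.72 ± 0.33, edgeR adjusted p = 0.0179). Itgb1, the integrin β1 gene, was at 146, 214, 77.1 and 125 CPM against 76.7, 69.6, 88.1 and 104.7 CPM (-1.24 ± 0.26, edgeR adjusted p = 0.0336). Nkg7 was at 205, 270, 113 and 154 CPM against 227, 238, 278 and 253 CPM (-1.01 ± 0.21, edgeR adjusted p = 0.0336). For each of the 4 genes the EV group lay wholly below the control group in members and wholly above it in other T cells. This is no added support, since the genes were picked by the interaction test on the same sums. In members the groups did not overlap for 33.6% of 6412 tested genes, and that share was not counted in other T cells. DESeq2 called none of the 4, and edgeR called 0 genes without control library 2.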

How the results depend on the processing

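The share of all cells was lower in the EV group under every alternative run. The share of T cells, with a log2 ratio of 0.011, turned to -0.12 under the stricter gate (Trdc with Il23r or Cd163l1), -0.090 after thinning to 2000 UMIs a cell and -0.0015 without Scrublet doublets, and the groups overlapped in each. Leaving out 1 library gave log2 EV-to-control ratios of -0.792 to -0.566 (of all cells) and -0.140 to 0.180 (of T cells). For members against other T cells, 945 genes were called after thinning to 2000 UMIs a cell, and 1689 to 2107 when 1 library was left out. For the Il23r/Cd163l1 against the Trdc-only members, whose alternatives were chosen after seeing the data, DESeq2 called 440, thinning gave 208 calls among 809 genes tested, 190 of them also called without thinning, and leaving out 1 library gave 555 to 717. Against Zbtb16 T cells, 117 genes were called without the filter on low counts, 115 when members needed Trdc with Il23r or Cd163l1, 5 without the library block, and 0 to 14 without 1 library. For EV against control, 34 were called without the filter on low counts, 1 under the stricter gate, 7 in Trdc-only members alone (chosen after seeing the data), and 3 to 19 without 1 library. Leaving out 1 library left 1 group with a single sample, assumed to vary like the other group. Replicate numbers are shared by the groups, but the deviations of same-numbered libraries from their group means correlated at r = -0.332 over 6401 genes, so the numbers were not taken to pair samples. The replicate block gave 0 calls, and the crossed replicate block, chosen after seeing the data, 46. For the difference in EV effect, DESeq2 called 0, no filter on low counts 13, library sizes without stress and rRNA-like genes 8, thinning 1, leaving out Scrublet doublets 2, and leaving out 1 library 0 to 50. Total UMIs in place of TMM, chosen after seeing the data, moved no total count of calls, both directions together, by over 1.5 times. For members against other T cells, however, higher calls went from 1147 to 1890 and lower calls from 1076 to 527, and Tox turned to 0.027. Signs reversed in 10 of 2213 values of named genes under an alternative, the others being: under the stricter gate Sox4 (-0.31), Il2rb (-0.53), Klrc1 (-8.39, with 0 UMIs in these members) and Ccl5 (-1.43) against other T cells and Ly6c2 (4.30, edgeR adjusted p = 0.021) in the EV difference, after thinning Itgav (-0.12), and against T cells without Cd4 and Cd8b1 Nkg7 (1.10), Klrd1 (0.41) and Ly6c2 (0.035). Of the remaining values 2068 kept their direction and their side of the threshold, 116 were no longer called and 19 became called. The cause was not tested.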
